A study of Mus musculus with 2 samples.

Results

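The Mir181 family of the mouse comprises 6 microRNA (miRNA) genes in 3 clusters of 2, Mir181a-1 with Mir181b-1 on chromosome 1, Mir181a-2 with Mir181b-2 on chromosome 2, and Mir181c with Mir181d on chromosome 8. They were taken by gene symbol from the 1973 miRNA gene rows of each count table, and all 6 had a row. The tables came from 2 libraries of small RNA below 30 nt, made from forebrain of B6NCrl mouse embryos at day 15.5. Both libraries belonged to 1 group of healthy embryos of both sexes. Replicate 2 pooled the forebrains of 62 embryos and replicate 1 those of 78 embryos. With 1 group, no condition could be compared, and the tests below compare these 2 libraries only. The labels call them biological replicates but do not say whether litters or dissection days were shared, and part of the difference between the libraries may be technical.

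A miRNA gene is transcribed as a longer RNA, from which a hairpin precursor is cut and then trimmed to a short duplex of a 5p and a 3p strand. The loaded strand guides Argonaute proteins to messenger RNAs, mainly through the seed, bases 2 to 8 from its 5′ end. miR-181 is known in the nervous system and in lymphocytes, where miR-181a raises the sensitivity of developing T cells to antigen.

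The 5p sequences of the family are shown because they decide which reads can be assigned to a single gene. The seed is in capitals, and the sequences are those of RefSeq on GRCm38.p6.
mmu-miR-181a-5p: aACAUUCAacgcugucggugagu
mmu-miR-181b-5p: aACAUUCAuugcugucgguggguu
mmu-miR-181c-5p: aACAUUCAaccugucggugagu
mmu-miR-181d-5p: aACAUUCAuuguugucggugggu

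All 6 genes carried 1 seed, in 4 distinct 5p sequences, and among 1738 mature mouse sequences searched no gene outside the family had this seed. Mir181a-1 and Mir181a-2 encode the same miR-181a-5p of 23 bases, and Mir181b-1 and Mir181b-2 the same miR-181b-5p of 24 bases. miR-181c-5p was 1 edit away from miR-181a-5p, and miR-181d-5p differed from miR-181b-5p by the substitution C12U, counted from the 5′ end, and by its length. The 3p sequences of the duplicated genes are shown with the bases that differ from the paralog in capitals.
mmu-miR-181a-1-3p: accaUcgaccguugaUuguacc
mmu-miR-181a-2-3p: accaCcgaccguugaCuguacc
mmu-miR-181b-1-3p: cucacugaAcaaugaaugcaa
mmu-miR-181b-2-3p: cucacugaUcaaugaaugcaaA

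The a pair of 3p sequences differed at U5C and U16C, with the base of Mir181a-1 first, and the b pair at A9U, with the base of Mir181b-1 first, and by a last base that only the Mir181b-2 strand has. Of the 12 mature arms of the family, 4 occurred whole in another precursor, all of them 5p arms of the a and b genes, and 8 occurred in no other of the 2202 annotated precursors searched. The whole precursors of these 4 genes, from GENCODE M21, show how far the identity reaches, with the longest run shared with the paralog in capitals.
Mir181a-1 precursor: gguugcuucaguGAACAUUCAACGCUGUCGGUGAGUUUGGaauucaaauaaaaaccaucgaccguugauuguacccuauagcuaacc
Mir181a-2 precursor: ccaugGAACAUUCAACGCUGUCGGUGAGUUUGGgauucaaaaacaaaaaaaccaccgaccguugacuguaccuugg
Mir181b-1 precursor: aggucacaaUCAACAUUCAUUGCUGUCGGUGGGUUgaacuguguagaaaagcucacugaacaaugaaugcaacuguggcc
Mir181b-2 precursor: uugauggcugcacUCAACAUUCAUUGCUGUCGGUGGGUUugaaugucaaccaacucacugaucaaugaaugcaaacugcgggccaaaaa

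The run shared by the a precursors was 28 bases and extended 1 base before and 4 bases after the mature 5p sequence. The run shared by the b precursors was 26 bases and extended 2 bases before and 0 bases after it. Mir181c shared at most 17 bases with any other family precursor, and Mir181d at most 13 bases. Reads placed at more than 1 locus stood in a row of their own, outside the gene rows, and made up 42.4% of reads in replicate 2 and 44.6% in replicate 1. How many of them were miR-181a-5p or miR-181b-5p is not recorded in the tables. Counts of the 4 a and b genes are therefore counts of reads that the authors' counting assigned to a single locus, and the arm of the precursor they came from was not tested.

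**Figure D1:**
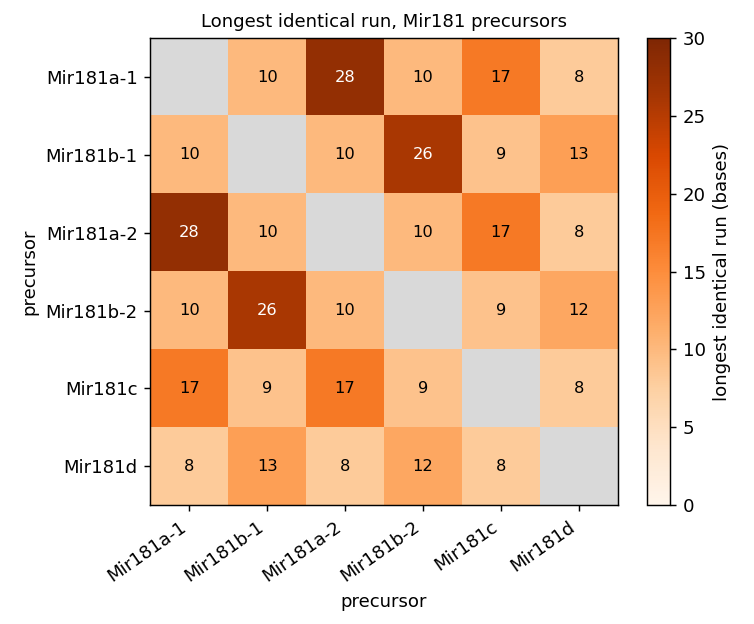
Longest run of identical bases between each pair of Mir181 precursors, with the genes on both axes and colour and number giving the run in bases; the diagonal is left grey. The a paralogs share 28 bases and the b paralogs 26, and no other pair shares more than 17.

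The clusters were compact, and no other miRNA row lay within 10 kb of one on the same strand. All coordinates are of mm10, counted from 1. On chromosome 1, Mir181a-1 (137966455 to 137966541, plus strand) and Mir181b-1 (137966639 to 137966718) were 97 bases apart. Both lay in an intron of the noncoding gene Gm4258 on the same strand. Mir181b-1 also lay whole within an exon of the long noncoding gene A430106G13Rik, of which the first 11 bases overlapped the end of Mir181a-1. On chromosome 2, Mir181a-2 (38852735 to 38852810, plus strand) and Mir181b-2 (38853830 to 38853918) were 1019 bases apart, the widest gap of the 3 clusters. Both lay opposite an intron of Nr6a1, an orphan nuclear receptor gene on the minus strand, and Mir181b-2 also lay opposite an exon of the unclassified gene Gm44144. On chromosome 8, Mir181c (84178873 to 84178961, minus strand) and Mir181d (84178716 to 84178787) were 85 bases apart, in an intron of a Nanos3 transcript on the same strand. Nanos3 is known for its part in germ cell development. The Mir181c row carried an earlier version of its identifier than the annotation used here, so the interval counted by the authors may differ from that given.

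**Figure D2:**
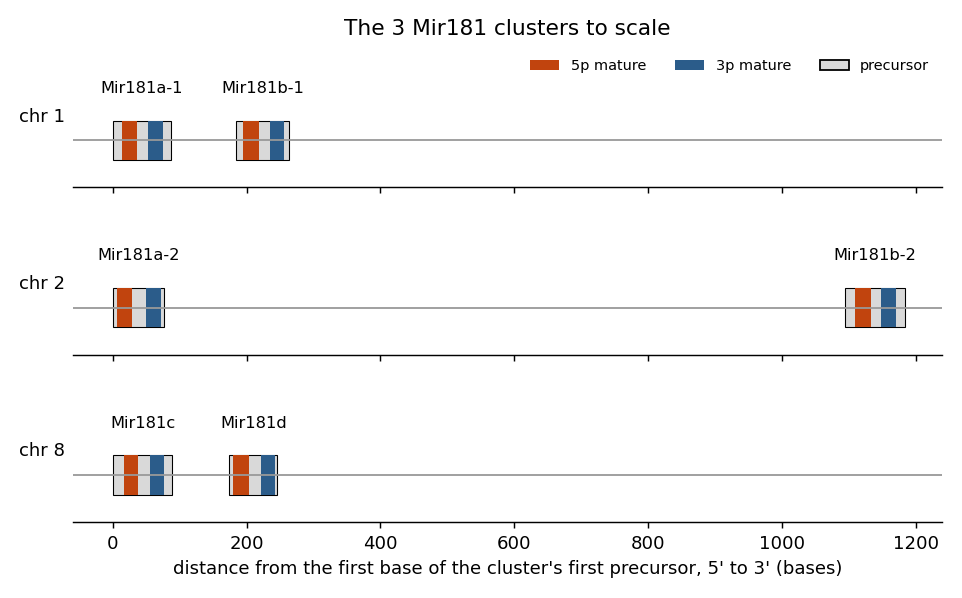
Maps of the 3 Mir181 clusters to one scale, with the distance in bases from the first base of the first precursor on the horizontal axis, read 5′ to 3′ (chr 8 is turned round). Grey boxes are precursors, orange and blue boxes their 5p and 3p mature sequences; the chromosome 2 genes stand 1019 bases apart, the others 97 and 85.

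Replicate 2 held 4753555 counts on the strand of miRNA genes, of 13074292 reads, and replicate 1 held 4464927 of 11743597. Levels are given as CPM, counts per 1000000 counts in gene rows, with SD over n = 2 libraries. The floor of 3 counts lay at 0.631 CPM for replicate 2 and at 0.672 CPM for replicate 1. Reads were not stated to carry molecular identifiers, so intervals, floors and tests cover counting error only. Markers of neurons and of other cells were measured beside the family. The neuron-enriched list, with 13 of 16 genes detected (at least 10 counts in each library) and 0 of 16 genes at 0 in both libraries, summed to 19905 CPM (replicate 2) and 20572 CPM (replicate 1). It was led by Mir137 (9092 ± 926 CPM) and Mir139 (3862 ± 15.0 CPM). The genes of this list that were not detected were Mir124a-1, Mir124a-2 and Mir124a-3, at means of 2.80, 2.25 and 1.05 CPM. The progenitor list (3 of 3 measured genes detected, 0 at 0) summed to 6843 CPM in replicate 2 and 5722 CPM in replicate 1, with Mir92b at 5547 ± 814 CPM and Mir9-3 at 733 ± 21.2 CPM. Endothelial Mir126a, the sole gene of its list, stood at 16377 and 15856 CPM in replicates 2 and 1. The immune list, of lymphoid and other immune cells, had 4 of 6 measured genes detected and summed to 247 CPM in replicate 2 and 235 CPM in replicate 1, led by Mir223 (88.0 ± 15.1 CPM) and Mir155 (77.3 ± 12.9 CPM), with Mir142b at 0 in both libraries. The erythroid list (3 of 3 detected, 0 at 0) summed to 165 CPM in replicate 2 and 140 CPM in replicate 1, led by Mir451a (92.0 ± 10.04 CPM) and Mir144 (44.4 ± 7.70 CPM). Reads placed at more than 1 locus were outside the sums of these lists too. They were also outside the levels of single genes, those of Mir124a included. A low level here is thus one of reads assigned to a single locus. Mir9-1 and Mir142 were not analysed here.

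The Mir181 family summed to 29327 CPM (replicate 2) and 31532 CPM (replicate 1), or 30430 ± 1560 CPM (SD, n = 2), which was 3.04% of the counts in gene rows. All 6 genes were detected, with a median level of 4474 CPM, against 111 CPM over the 370 detected genes. Of family counts assigned to a single locus, the chromosome 8 cluster held most, at 67.7% in replicate 2 and 66.8% in replicate 1. Its level was 20469 ± 851 CPM (SD, n = 2). The chromosome 1 cluster held 22.1% of family counts in replicate 2 and 22.3% in replicate 1, at 6758 ± 384 CPM (SD, n = 2). The chromosome 2 cluster was the lowest by these counts, with 10.1% in replicate 2 and 10.9% in replicate 1, at 3203 ± 324 CPM (SD, n = 2). Reads of miR-181a-5p or miR-181b-5p placed at more than 1 locus are outside the family and cluster sums. Only genes of the chromosome 1 and chromosome 2 clusters encode these sequences. Whether the whole output of the clusters was split in the same way was not tested. In bulk tissue, fewer cells of a type and less RNA per cell cannot be told apart.

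Mir181c, whose 5p sequence no other gene shares, had 66013 counts in replicate 2 and 63758 in replicate 1, or 13887 and 14280 CPM. By counts assigned to a single locus, it was the highest of the family, at rank 15 of the 1973 rows. Mir181d, its neighbour, which also has a 5p sequence of its own, had 28426 counts in replicate 2 and 30321 in replicate 1, or 5980 and 6791 CPM. Mir181c was thus the higher gene of this cluster in both libraries.

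Mir181a-1 had 30740 counts in replicate 2 and 31277 in replicate 1, or 6467 and 7005 CPM. Its cluster neighbour Mir181b-1 had 93 counts in replicate 2 and 111 in replicate 1, or 19.6 and 24.9 CPM, at rank 272. By counts assigned to a single locus, Mir181b-1 was the lowest member, yet its counts in both libraries lay above the floor of 3.

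Mir181b-2, the paralog of Mir181b-1 on chromosome 2, had 10649 counts in replicate 2 and 12880 in replicate 1, or 2240 and 2885 CPM. Mir181a-2 had 3486 counts in replicate 2 and 2443 in replicate 1, or 733 and 547 CPM. By counts assigned to a single locus, the b gene was the higher one in this cluster, whereas on chromosome 1 it was the a gene, in both libraries.

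**Figure D3:**
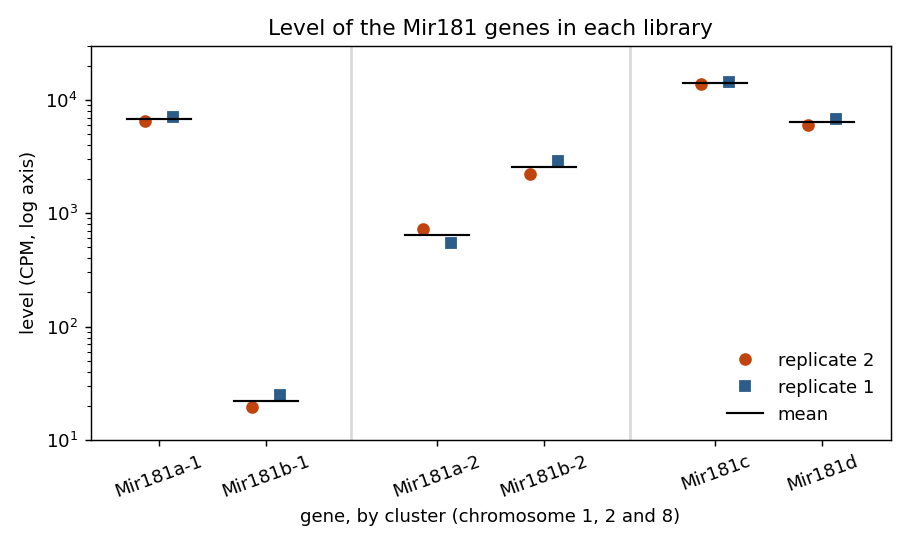
Level of each Mir181 gene in CPM on a log axis, with 1 point per library and a line at the mean of both; the genes are grouped by cluster, from chromosome 1 at the left to chromosome 8 at the right. By counts assigned to a single locus, levels run from 22.2 CPM (mean) for Mir181b-1 to 14083 CPM for Mir181c. Mir181a-1 and Mir181d stand at nearly the same height.

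In order of mean CPM the genes were Mir181c (14083 ± 278), Mir181a-1 (6736 ± 381), Mir181d (6385 ± 573), Mir181b-2 (2562 ± 456), Mir181a-2 (640 ± 132) and Mir181b-1 (22.2 ± 3.74), with SD over n = 2 libraries. Neighbours in this order differed by more than the larger of their SDs, except Mir181a-1 and Mir181d, whose means were 350 CPM apart with a larger SD of 573 CPM. Within each library Mir181a-1 was the higher of this pair, at 6467 against 5980 CPM in replicate 2 and 7005 against 6791 CPM in replicate 1. A mature miRNA is read whole, so a count does not grow with the length of the precursor. Per 100 bases of annotated precursor, Mir181d (8869 CPM per 100 bases) came before Mir181a-1 (7742 CPM per 100 bases), and the order of the other 4 genes did not change. The steps ranged from 2.09-fold, between Mir181c and Mir181a-1, to 28.8-fold, between Mir181a-2 and Mir181b-1, leaving out the unseparated pair. Order and steps are of counts assigned to a single locus. Reads of a 5p sequence shared by paralogs have no part in them where they were placed at both loci. This limit bears on the a and b genes, not on Mir181c and Mir181d, and the order of whole output was not tested.

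Partners of a cluster were unequal in counts assigned to a single locus, although each pair lies close together on 1 strand. The a and b genes each share a mature sequence with their paralog. Reads of that sequence have no part in these counts where they were placed at both loci. Whether the whole output of the a and b partners of a cluster was split in the same way was not tested. Mir181a-1 held 99.7% of the counts of its cluster in replicate 2 (30740 of 30833, Clopper-Pearson 95% interval 99.6 to 99.8) and 99.6% in replicate 1 (interval 99.6 to 99.7). Its mean level in CPM was 303 times that of Mir181b-1, a log2 difference of 8.24 in CPM and of 8.12 per 100 bases. Mir181c held 69.9% of its cluster in replicate 2 (interval 69.6 to 70.2) and 67.8% in replicate 1 (interval 67.5 to 68.1). Its mean level was 2.21 times that of Mir181d, a log2 difference of 1.14 in CPM and of 0.84 per 100 bases.

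Mir181a-2 held 24.7% of its cluster in replicate 2 (interval 24.0 to 25.4) and 15.9% in replicate 1 (interval 15.4 to 16.5). The intervals of the libraries did not overlap in this cluster or in that of Mir181c and Mir181d, and they overlapped in that of Mir181a-1 and Mir181b-1. The log2 difference of Mir181a-2 over Mir181b-2 was -1.61 in replicate 2 and -2.40 in replicate 1, 0.79 apart, where the libraries differed by 0.23 for the chromosome 1 pair and by 0.14 for the chromosome 8 pair. Per 100 bases the difference of the means was -1.77, so that Mir181b-2 was the higher gene by these counts on either scale and in both libraries.

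Paralogs with the same 5p sequence were also unequal, and in opposite senses. Of the counts assigned to either miR-181a gene, Mir181a-1 held 89.8% in replicate 2 (Clopper-Pearson 95% interval 89.5 to 90.1) and 92.8% in replicate 1 (interval 92.5 to 93.0), a mean level 10.5 times that of Mir181a-2. Of the counts assigned to either miR-181b gene, Mir181b-2 on chromosome 2 held 99.1% in replicate 2 (interval 98.9 to 99.3) and 99.1% in replicate 1 (interval 99.0 to 99.3), a mean level 115 times that of Mir181b-1. These shares rest on reads with a single assigned locus. Reads of the shared 5p sequence had no part in them where they were placed at both loci, and whether the whole output of the paralogs was split in the same way was not tested.

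**Figure D4:**
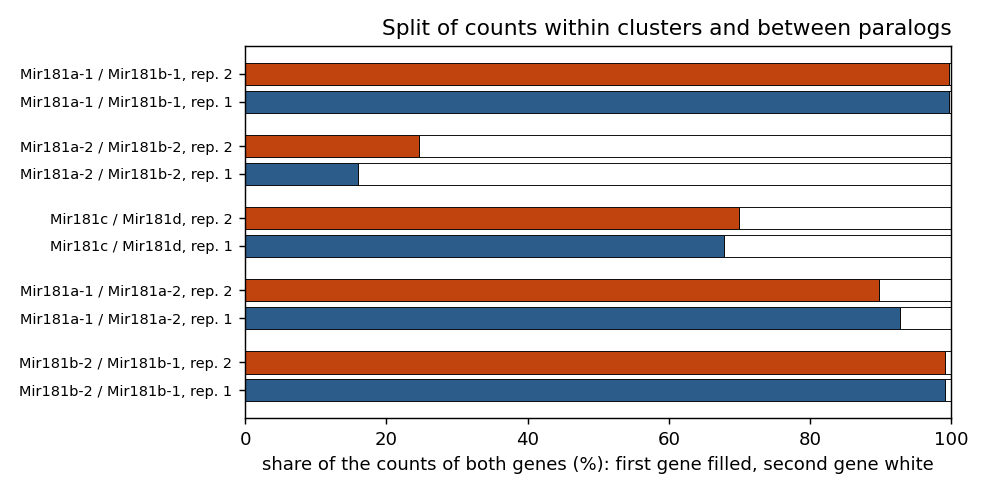
Share of the summed counts of 2 genes (horizontal axis, %) held by the first gene (filled bar) and the second (white), for the 3 clusters and the 2 paralog pairs, with replicate 2 above replicate 1 in each. Mir181a-1 takes nearly the whole of its cluster, Mir181a-2 takes 24.7% and 15.9% of its own, and the splits of both libraries otherwise differ by less than the split of that cluster does.

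Among the genes with both a row and a RefSeq mature sequence matched by symbol, which are not all rows of the table, 87 had a mature sequence identical to that of another gene, and 829 had none. Of the 87, 44 were detected, with a median of 178 CPM, and of the 829, 291 were detected, with a median of 121 CPM. In the family the 4 genes with a shared sequence had a median of 1601 CPM, against 10234 CPM for Mir181c and Mir181d. This is a description of 6 genes and was not tested. All these levels are of counts assigned to a single locus. They leave out reads of a shared sequence that were placed at several loci. That limit bears on the 4 genes of the family and on the 87 genes, through the very property by which genes were grouped. The medians therefore cannot show whether whole output differs between genes with and without a shared sequence.

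No member had a count on the opposite strand in either library. As an upper limit, the floor of 3 counts was divided by the counts of the gene, which is not a Clopper-Pearson interval. For Mir181c, 0 of 66013 counts in replicate 2 allows a share of up to 0.00454%, and 0 of 63758 in replicate 1 up to 0.00471%. For Mir181b-1, with far fewer counts, the limits were 3.23% in replicate 2 and 2.70% in replicate 1. Of the 370 detected genes, 332 (89.7%) likewise had no opposite-strand count, so this was the common case in the table.

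Between the libraries, 5 of the 6 members differed beyond counting error, 4 lower and 1 higher in replicate 2 (exact binomial test over 457 genes, Benjamini-Hochberg adjusted p below 0.05). Among all genes tested 36.3% were called, 19.3% higher and 17.1% lower in replicate 2. Members had deep counts, at which small differences pass the test. The 5 called members were among the 143 genes that reached 1000 counts in both libraries, and of those 103 (72.0%) were called, so that a call at this depth was the common case. The median log2 ratio of replicate 2 over replicate 1 was -0.15 over the members and 0.046 over the 370 detected genes. The median absolute log2 ratio was 0.26 over the members, 0.19 over the detected genes and 0.13 over the 143 deep genes. The value over the members includes Mir181b-1, which is not among the 143.

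The gene higher in replicate 2 was Mir181a-2, where the log2 ratio was 0.42 (adjusted p = 6.24e-28 by the exact binomial test). For its neighbour Mir181b-2, which was lower, it was -0.36 (adjusted p = 4.10e-82 by the exact binomial test). Genes of 1 cluster thus moved in opposite directions, under each of the scalings run.

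Also lower in replicate 2 were Mir181d, at -0.18 on the log2 scale (adjusted p = 2.35e-52 by the exact binomial test), and Mir181a-1, at -0.12 (adjusted p = 2.29e-22 by the same exact test). Mir181c was lower by a ratio of -0.040 on the log2 scale (adjusted p = 2.38e-06 by the exact binomial test) but stood at 0.019 when Mir99a, the most abundant gene, was taken out of the library totals, so its direction depended on scaling. Mir181b-1, at -0.34, was not called (adjusted p = 0.198 by the exact binomial test).

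The differences were also set against the general spread between the 2 libraries. The edgeR common dispersion, 16.1% as a coefficient of variation, corresponds to an SD of 0.33 for a log2 ratio, without counting error. It was estimated from the same 2 libraries over all genes, the members included. It thus gives the usual size of such differences and is no independent measure of replicate spread. The absolute log2 ratios of Mir181a-2, Mir181b-2 and Mir181b-1 exceeded this SD, as did those of 107 (28.9%) of the 370 detected genes. Mir181b-1 did so narrowly, at -0.344 against a spread of 0.328. With 93 counts in replicate 2 and 111 in replicate 1, its counting error comes on top of that spread. The absolute log2 ratios of Mir181a-1, Mir181c and Mir181d lay below the SD. Each call compares 2 pools and has no replicate check.

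**Figure D5:**
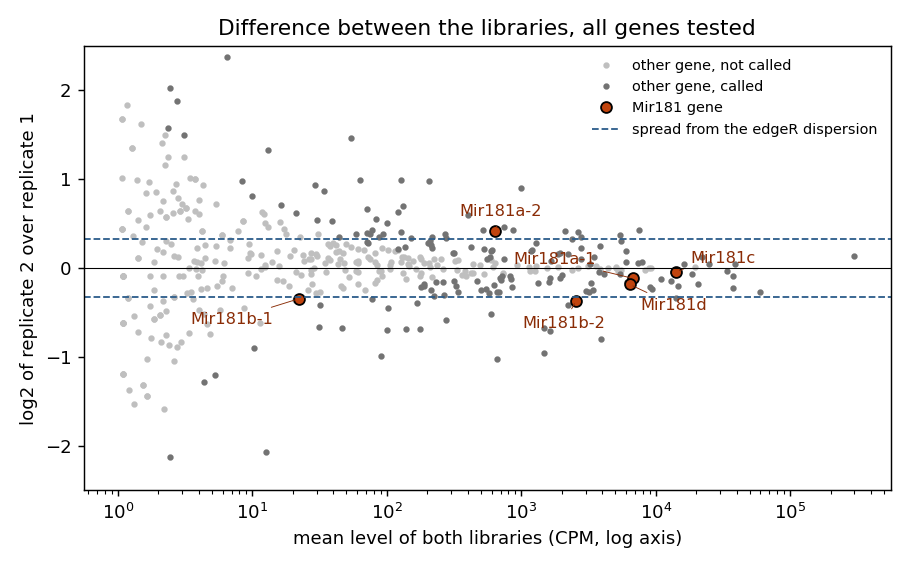
Log2 ratio of replicate 2 over replicate 1 against the mean level in CPM (log axis) for the 457 genes tested, with called genes in dark grey, others in light grey and the Mir181 genes in orange; dashed lines mark the spread of 0.33, and 2 genes lie outside the axis. Mir181a-2 stands above the upper line and Mir181b-2 below the lower one, while Mir181c lies close to 0.

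The cell type lists were counted in the same comparison. In the neuron-enriched list 5 genes were higher, 2 lower and 9 not called, and in the immune list 1 was higher, 1 lower and 3 not called, by the test over all 457 genes, of which 19.3% were higher and 17.1% lower. In the progenitor list 1 was higher and 2 not called, in the erythroid list 1 was higher and 2 not called, and endothelial Mir126a was higher, with a log2 ratio of 0.047. Their part in the members' differences was not tested.

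By a fixed rule, the gene with the levels most like those of each member was the detected gene at the smallest distance in log2(CPM + 1) over the 2 libraries, among 364 candidates. For Mir181c this was Mir322 on chromosome X, a gene of the miR-15/16 seed family, at a distance of 0.11, with 13164 CPM in replicate 2 and 13529 CPM in replicate 1. For both Mir181d and Mir181a-1 it was Mir369 of the imprinted Dlk1-Dio3 region on chromosome 12, at distances of 0.028 and 0.10. For Mir181b-2 it was Mir872 (distance 0.26), for Mir181a-2 it was Mir25 of the Mir106b-25 cluster (0.18), and for Mir181b-1 it was Mir7689 (0.12). With 2 libraries of 1 tissue, such likeness is one of level and says nothing beyond it.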

How the data were processed

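The deposited values were raw counts for each miRNA gene, not normalized by the authors, on either strand and on each strand. Per the deposited text, reads were aligned to mm10 with GENCODE M4 annotation; for aligner and counter, not given in the sources used here. Of the single-strand columns, that with the larger sum was taken as sense. The 4 rows naming no gene (multi-mapping, unmapped at 18.2% in replicate 2 and 14.3% in replicate 1, no feature at 3.07% and 3.03%, ambiguous) stayed out of totals. Identifiers were matched to GENCODE M21 (1894 of 1973); mature sequences came from RefSeq (GRCm38.p6).

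Genes with at least 10 counts in total were tested between libraries by a two-sided exact binomial test (scipy 1.17.1), with Benjamini-Hochberg adjustment over all of them. Log2 ratios had 0.5 counts added. edgeR 4.0.16 (TMM) gave the dispersion, and DESeq2 1.42.0 size factors were an alternative. The test was tried on simulated counts that held counting error alone. With no spread between replicates in them, they cannot show how the test behaves where such spread exists. Named genes were the 6 members, the nearest gene of each, and up to 2 leading genes of each cell type list. Some list genes that were low, at 0 or not analysed were named too. Members and lists were chosen with earlier results of these data known.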

Additional observations from a re-analysis of the deposited data

How the results depend on the processing

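The same number of members, 5, was called with TMM and DESeq2 scaling, without Mir99a in the total, with either-strand counts, with other count minimums and with 0 or 5 counts added, and Mir181c alone changed direction. Without Mir99a in the total, Mir181c had a log2 ratio of 0.019 and was called higher in replicate 2, since all log2 ratios shifted up by 0.060; TMM and DESeq2 factors shifted them by -0.037 and -0.027. The share of all called genes that were higher in replicate 2 was 53.0%, against 43.4% with TMM and 69.1% without Mir99a. With other minimums 21.5% (1 count in total) and 53.0% (100 counts) of the genes tested were called. Levels scaled with the total by construction. Without Mir99a the family summed to 43259 CPM and the chromosome 1, 2 and 8 clusters to 9607, 4550 and 29103 CPM. Over all reads of a library the sums were 11326, 2516, 1193 and 7617 CPM in the same order, and per 100 bases of precursor 36185, 7770, 3722 and 24693 CPM. Per 100 bases the log2 difference was 0.84 for Mir181c over Mir181d and 6.70 for Mir181b-2 over Mir181b-1; alternatives for paralog pairs were chosen after seeing the data. The 4 genes with a shared mature sequence were also 4 when any 18 shared bases counted. Leaving out either of 2 libraries gives the value of the other, which is printed for each member and shows nothing of stability, and the test between libraries has no such form. No paired analysis was possible because the design has 1 group. Mir181b-1, at about 100 counts, is the member whose differences depth limits.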
